A study of Mus musculus with 12 samples.

Results

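The genes described here carry names of subunits of the mitochondrial respiratory chain and of ATP synthase, and they were chosen by symbol from 12 RNA libraries labelled as VE-cadherin-positive endothelial cells of mouse bone marrow and lung. The rule took symbols made of Ndufa, Ndufb, Ndufc, Ndufs or Ndufv and a number (complex I), symbols starting with Uqcr (complex III), with Cox and a number from 4 to 8 (complex IV) or with Atp5 (complex V), and the mitochondrially encoded messenger genes. It left out 10 names with the ending ps and found 93 genes among the 55291 symbols counted. Of these, 80 lie in the nuclear genome, with 36 in complex I, 8 in complex III, 19 in complex IV and 17 in complex V, and 13 are encoded by mitochondrial DNA. One of them, Cox6c2, is annotated as a processed pseudogene (GENCODE M21) and is kept because its symbol fits the rule. Enough counts for the test were present for 86 of the 93, namely 78 nuclear and 8 mitochondrially encoded genes. Cox7b2, Cox8c, mt-Atp6, mt-Atp8, mt-Co2, mt-Co3 and mt-Nd4l were not tested.

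The 4 groups held 3 libraries each. Marrow AML and lung AML came from VECadCre-tdTomato mice transplanted with acute myeloid leukaemia (AML) cells that carried the R172H allele of Trp53 and a deleted one. Marrow control and lung control came from VECadCre-tdTomato mice that had received no transplant. All 4 groups thus shared the transgenes, by name a Cre under the VE-cadherin promoter with a red fluorescent reporter, and differed in the organ and in the presence of leukaemia. The labels do not say whether the 3 libraries of a group were 3 mice, so p-values measure the spread between these libraries.

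Respiratory complexes I, III and IV pass electrons from NADH to oxygen and pump protons out of the mitochondrial matrix, and complex V, ATP synthase, lets them flow back to make ATP. Complex II, which feeds in electrons from succinate, pumps no protons and is encoded in the nucleus alone. Each of complexes I, III, IV and V is assembled from nuclear subunits imported from the cytosol and from a core made on mitochondrial ribosomes, so both genomes have to be read for a working chain. Quiescent endothelial cells are known for relying largely on glycolysis, while red cell precursors hold many mitochondria, where the making of haem begins and ends.

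Total counts lay between 12787550 in marrow AML library 1 and 39163571 in lung AML library 1. Markers of the labelled cell type were scarce. Cdh5, which encodes VE-cadherin, had 0.389, 0.955 and 0.558 CPM (counts per 1000000 counts of the library, scaled with TMM factors) in marrow AML libraries 1 to 3 and 3.54, 6.53 and 4.67 CPM in marrow control libraries. It had 3.90, 31.8 and 12.1 CPM in lung AML and 75.4, 348 and 140 CPM in lung control. The 15 pan-endothelial markers together held 0.0211% to 0.0286% of the counts in marrow AML, 0.0186% to 0.0273% in marrow control, 0.0301% to 0.100% in lung AML and 0.242% to 0.815% in lung control. The highest share was that of lung control library 2, which also stood apart in its mitochondrially encoded counts, and results that rest on it are given with and without it. In these bulk libraries fewer cells of a type and less RNA per cell cannot be told apart.

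Marrow AML libraries had lower levels of respiratory chain transcripts than marrow control libraries. Of the 86 genes tested, 36 were called lower (41.9%), against 23.5% of all 18147 genes, and 2 were called higher (2.33%), against 20.4% of all genes (edgeR quasi-likelihood test, adjusted p under 0.05). The median log2 fold change was -0.59 over the 86 genes and -0.11 over all genes, and 77 of the 86 had a negative value. In all, 43.8% of all genes were called in either direction. Lower calls fell in every complex, with 16 of 36 nuclear genes of complex I, 4 of 8 of complex III, 6 of 17 of complex IV, 7 of 17 of complex V and 3 of 8 mitochondrially encoded genes. With library totals in place of TMM factors, 16 genes were called lower and 4 higher, while of all genes 16.2% were lower and 25.6% higher, and the medians were -0.27 over the members and 0.16 over all genes. With a filter of 5 CPM in 3 libraries, 19 of 82 members were called lower, near the share of all genes (22.5%). In a fit of the 6 marrow libraries alone it was 19 of 84, against 16.9% of all genes. Without marrow AML library 2 it was 23 of 86, against 21.7% of all genes. It was 23 without marrow control library 2 and 22 without marrow control library 3, against 17.7% and 20.8% of all genes. Of the 38 calls, 17 held under every alternative tried, those of Uqcrfs1, Uqcrc1, Ndufs1, Ndufs6, Ndufs7, Ndufv1, Ndufa5, Ndufb2, Atp5a1, Atp5b, Atp5d, Cox6b1, Cox6b2, Cox7c, Cox4i2, Cox7a1 and mt-Co1, except that Cox7a1 was not tested with the filter of 5 CPM. Leaving out 1 library ended 16 of the 38 calls. Leaving out marrow AML library 2 or 3 or marrow control library 2 or 3, each on its own, ended those of Ndufa4, Ndufb3, Ndufb9, Ndufs3, Cox4i1, Cox5b, Cox6a1, Atp5h and Atp5o. The call of Uqcrb ended without marrow AML library 2 or marrow control library 3, that of Atp5g3 without library 2 of either group, that of Ndufa12 without any 1 of these 3 libraries, and those of Uqcrc2 and Ndufs4 without marrow control library 3. The adjusted p for these calls without the library lay between 0.0507 and 0.155 (edgeR), and the other 2 were those of mt-Nd5 and mt-Nd6.

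The summed level of the 80 nuclear genes was 21898, 15555 and 14994 CPM in marrow AML libraries 1 to 3 and 22395, 29147 and 31014 CPM in marrow control libraries 1 to 3. With this scaling the groups did not overlap, but marrow AML library 1 came close to marrow control library 1. As a share of all counts, without TMM factors, the groups overlapped, with 2.65% in marrow AML library 1 and 2.21% in marrow control library 1. The summed level of complex V parted the groups more clearly in CPM, with 7590.5, 5618 and 5512 CPM in marrow AML and 9330, 11084 and 10959 CPM in marrow control. As a share of all counts complex V held 0.917% in marrow AML library 1 and 0.920% in marrow control library 1, so there the groups barely parted. The sums of complexes I, III and IV overlapped. Complex I had 7389, 5239 and 5033 CPM in marrow AML and 6609, 8686 and 10119 CPM in marrow control. Complex III had 2885 CPM in marrow AML library 1 and 2839 CPM in marrow control library 1, and complex IV had 4033 and 3617 CPM in these libraries. Marker lists of other cells moved with this comparison. The 14 erythroid markers held 0.106% to 0.570% of the counts in marrow AML and 2.47% to 2.67% in marrow control, with all 14 called lower. The 14 proliferation genes held 0.139% to 0.3195% in marrow AML and 1.23% to 1.27% in marrow control, again with all 14 called lower. The 12 pericyte and smooth muscle markers held 0.417% to 1.54% in marrow AML and 0.0245% to 0.0914% in marrow control, with 10 called higher. The 10 pan-leukocyte markers held 0.0139% to 0.0230% in marrow AML and 0.00809% to 0.0112% in marrow control, with 7 called higher and 1 lower, and the 12 marrow stromal markers held 1.30% to 2.51% in marrow AML and 1.42% to 2.01% in marrow control, with 5 higher and 4 lower. Of the 15 pan-endothelial markers 1 was higher and 7 were lower. None of the erythroid, proliferation or pericyte genes was at 0 in a marrow library, and the part of these lists in the results for the respiratory chain was not tested.

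**Figure D1:**
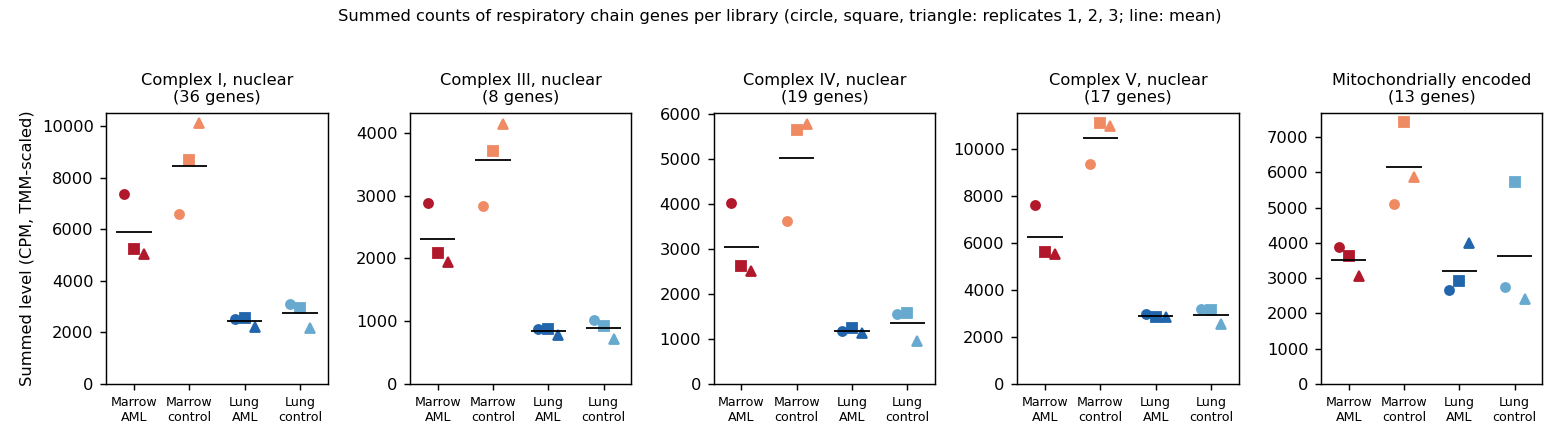
Summed level in CPM (vertical axis, from 0, with its own scale in each panel) of the nuclear genes of complexes I, III, IV and V and of the 13 mitochondrially encoded genes, for each library of the 4 groups, with the group mean as a line. Marrow AML libraries lie at 5512 to 7590.5 CPM for complex V against 9330 to 11084 CPM in marrow control, and among the mitochondrially encoded genes lung control library 2, at 5726 CPM, lies above the other 2 lung controls.

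Complex I takes electrons from NADH. Its 16 nuclear genes called lower in marrow AML were Ndufa4, Ndufa5, Ndufa9, Ndufa10, Ndufa12, Ndufb2, Ndufb3, Ndufb7, Ndufb9, Ndufb10, Ndufs1, Ndufs3, Ndufs4, Ndufs6, Ndufs7 and Ndufv1, with log2 fold changes from -1.41 for Ndufb2 to -0.44 for Ndufs3. Ndufs1, on chromosome 1 (mm10, 63143596 to 63176833, minus strand), encodes the largest subunit, which carries iron-sulphur clusters. It had 131, 112 and 126 CPM in marrow AML libraries 1 to 3 and 314, 269 and 254 CPM in marrow control libraries. The groups were well apart, and the log2 fold change was -1.18 ± 0.15 (SE; edgeR, adjusted p = 0.000122). Ndufv1, the subunit that binds NADH and the flavin, had 229.5, 169 and 187 CPM in marrow AML and 404.5, 398 and 331 CPM in marrow control, a log2 fold change of -0.95 ± 0.15 (SE; edgeR, adjusted p = 0.000584). Of the 7 core subunits in the nuclear genome, among them those that carry the flavin and the clusters, 4 were lower, namely Ndufs1, Ndufs3, Ndufs7 and Ndufv1. Of the 29 other nuclear complex I genes, 12 were lower. The core genes Ndufs8 and Ndufv2 had log2 fold changes of -0.36 and -0.39 and did not pass. Positive values were found for Ndufc2 (0.58), Ndufv3 (0.21) and Ndufb4 (0.09), none past the threshold, but Ndufc2 (0.90) and Ndufv3 (0.53) were called higher with library totals. Ndufa4, which was later assigned to complex IV, had a log2 fold change of -1.15 ± 0.35 (SE; edgeR, adjusted p = 0.0216).

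Complex III passes electrons from ubiquinol to cytochrome c. Uqcrfs1, which encodes its Rieske iron-sulphur protein and lies on chromosome 13 (mm10, 30540308 to 30545362, minus strand), had 190.5, 126.5 and 160 CPM in marrow AML libraries 1 to 3 and 370, 443 and 454 CPM in marrow control libraries. Every marrow AML library was below every marrow control library, with a log2 fold change of -1.41 ± 0.17 (SE; edgeR, adjusted p = 0.000102). Uqcrc1, a core protein of the complex, had 690.4, 583 and 521 CPM in marrow AML and 983, 995 and 1049 CPM in marrow control, a log2 fold change of -0.75 ± 0.15 (SE; edgeR, adjusted p = 0.00224). The other core protein gene, Uqcrc2 (-0.53), and Uqcrb (-0.89) were also called lower. The small subunit genes Uqcrh (-0.70), Uqcr11 (-0.69), Uqcr10 (-0.29) and Uqcrq (-0.02) were not.

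Complex IV, cytochrome c oxidase, reduces oxygen to water. Its 6 nuclear genes called lower in marrow AML were Cox4i1, Cox5b, Cox6a1, Cox6b1, Cox6b2 and Cox7c. Cox7c had 110, 62.9 and 62.1 CPM in marrow AML and 145, 272.5 and 314 CPM in marrow control, a log2 fold change of -1.64 ± 0.36 (SE; edgeR, adjusted p = 0.00353). Its transcript shares 53.0% of its 50-base words with other annotated genes, most with Gm10012, so reads could have been split between copies. Cox4i1, the common form of the regulatory subunit 4, had 910 CPM in marrow AML library 1 and 843 CPM in marrow control library 1, so its groups overlapped. Its log2 fold change of -0.73 ± 0.27 (SE; edgeR, adjusted p = 0.0431) was past the threshold, with adjusted p from 0.111 to 0.126 without any 1 of the 4 libraries that ended the call. Cox5a (-0.44), Cox6c (-0.60), Cox6c2 (-0.24), Cox7a2 (-0.36), Cox7b (-0.38) and Cox8a (-0.58) were not called.

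Several subunits of complex IV come in a common form and in a form found in few tissues, and these restricted forms went different ways in marrow AML. Cox4i2, the form of subunit 4 known from lung and from low oxygen, lies on chromosome 2 (mm10, 152754173 to 152765037, plus strand). It had 15.5, 14.5 and 24.9 CPM in marrow AML libraries 1 to 3 and 3.17, 1.31 and 2.22 CPM in marrow control libraries. It rose 8.19-fold, a log2 fold change of 3.03 ± 0.55 (SE; edgeR, adjusted p = 0.00122). In the same comparison 10 of 12 pericyte and smooth muscle markers were called higher and none lower, and a link with Cox4i2 was not tested. Cox7a1, the heart and muscle form of subunit 7a, had 4.21, 1.95 and 1.19 CPM in marrow AML and 0.279, 0.201 and 0.359 CPM in marrow control, a log2 fold change of 3.10 ± 0.72 (SE; edgeR, adjusted p = 0.00497). In both genes every marrow AML library was above every marrow control library. Cox6b2, the testis form of subunit 6b, went the other way, with 35.0, 8.33 and 3.28 CPM in marrow AML and 78.5, 122 and 103 CPM in marrow control. Its log2 fold change was -2.72 ± 0.65 (SE; edgeR, adjusted p = 0.00586), and marrow AML library 1 was the highest of its group. Without that library the log2 fold change was -4.12 for Cox6b2 and 2.47 for Cox7a1, both called. The common form Cox6b1 fell with it, by 1.32 on the log2 scale. Cox6a2, the muscle form of subunit 6a, stayed under 1 CPM in every marrow library. Cox8b had no count in marrow AML and 2 counts in marrow control.

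Per kilobase of transcript, the restricted forms were below the common ones in marrow. Mean levels of Cox4i2 were 24.98 CPM per kilobase in marrow AML and 3.04 in marrow control, while those of Cox4i1 were 930 CPM per kilobase in marrow AML and 1546 in marrow control. Cox7a1 had 6.23 CPM per kilobase in marrow AML and 0.712 in marrow control, while Cox7a2 had 465 in marrow AML and 596 in marrow control. Cox7b2, a germ cell form, had 15 counts in marrow AML, all in library 2, and none in marrow control. With marrow control set to its floor of 3 counts over 3 libraries, it was at least 4.13-fold higher, from 1 library. Cox7a2l, which encodes a factor that joins complexes III and IV, had 73.5, 72.4 and 74.6 CPM in marrow AML and 62.7, 75.6 and 77.9 CPM in marrow control, a log2 difference of 0.03 ± 0.14 (SE).

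**Figure D2:**
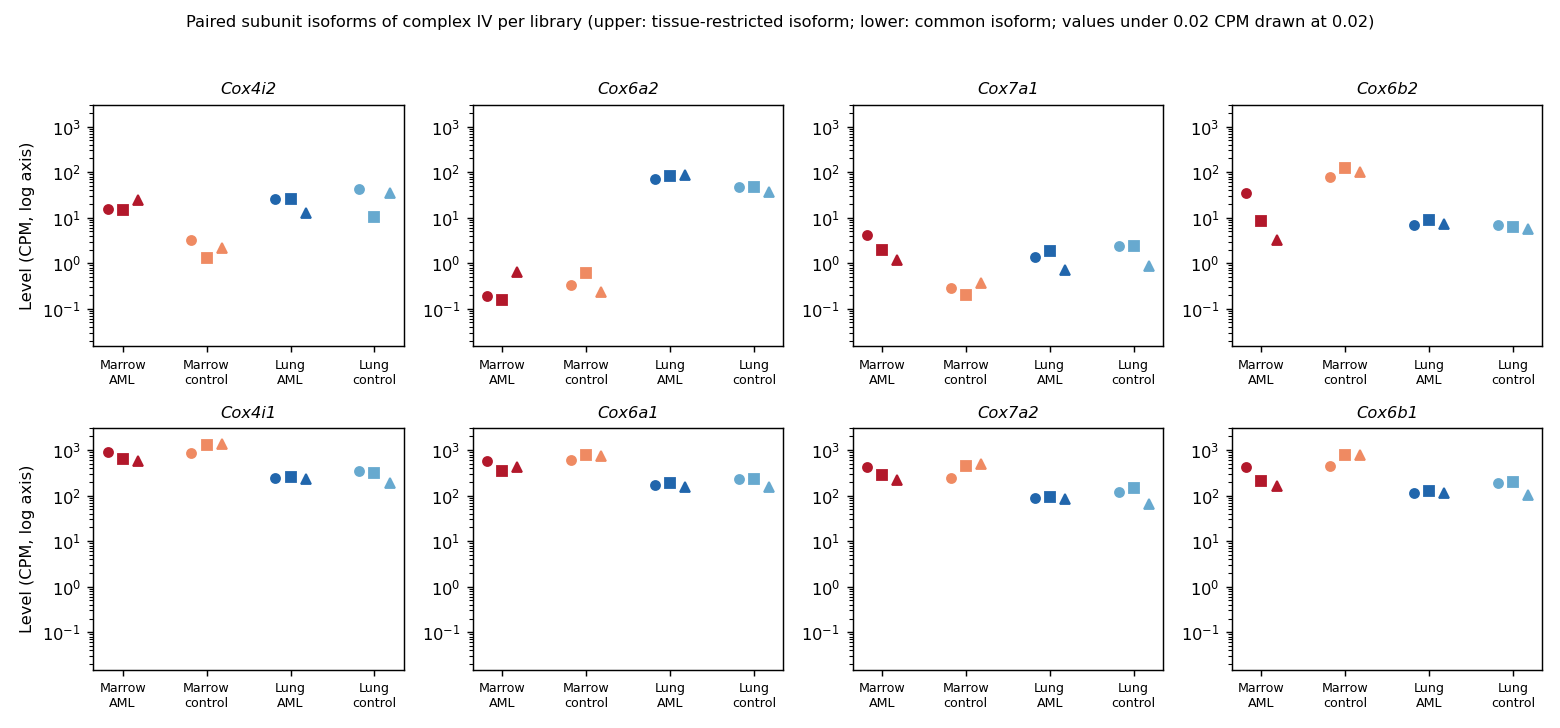
Level in CPM (logarithmic axis) of 4 tissue-restricted subunit forms of complex IV (upper row) and their common forms (lower row) in each of the 12 libraries. Cox4i2 lies at 14.5 to 24.9 CPM in marrow AML against 1.31 to 3.17 CPM in marrow control, and Cox6a2 is under 1 CPM in all marrow libraries and above 37 CPM in all lung libraries.

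Complex V makes ATP. The catalytic head carries the alpha and beta subunits Atp5a1 and Atp5b, and both were lower in marrow AML. Atp5b had 1772, 1434 and 1627 CPM in marrow AML libraries 1 to 3 and 3195, 3157 and 2484.5 CPM in marrow control libraries, a log2 fold change of -0.87 ± 0.17 (SE; edgeR, adjusted p = 0.00153). Atp5a1 had 731, 627 and 796 CPM in marrow AML and 1718.5, 1703 and 1378 CPM in marrow control, a log2 fold change of -1.16 ± 0.15 (SE; edgeR, adjusted p = 0.000202). For both genes the highest marrow AML library was well below the lowest marrow control library. Of the central stalk, Atp5d, with a mean of 173 CPM in marrow AML and 346 CPM in marrow control, was called lower, while Atp5c1 (-0.54) and Atp5e (-0.73) were not. Of the outer stalk, Atp5pb (-0.68), Atp5h (-0.83) and Atp5o (-0.71) were lower and Atp5j (-0.42) was not. Of the 3 genes for the c subunit of the rotor ring, which encode the same mature protein, Atp5g3 fell by 0.80 on the log2 scale. Atp5g1 had a log2 fold change of -0.41 and Atp5g2 of 0.07, and neither passed. Atp5g2 and Atp5l share 87.4% and 84.8% of their 50-base words with other annotated genes, and Atp5h (47.9%), Uqcrb (43.4%), Ndufs3 (39.7%) and Atp5pb (38.7%) share many as well, so these values are uncertain. The other small subunit genes, Atp5j2 (-0.56), Atp5k (-0.55), Atp5mpl (-0.15), Atp5l (0.07) and Atp5md (0.07), did not pass.

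**Figure D3:**
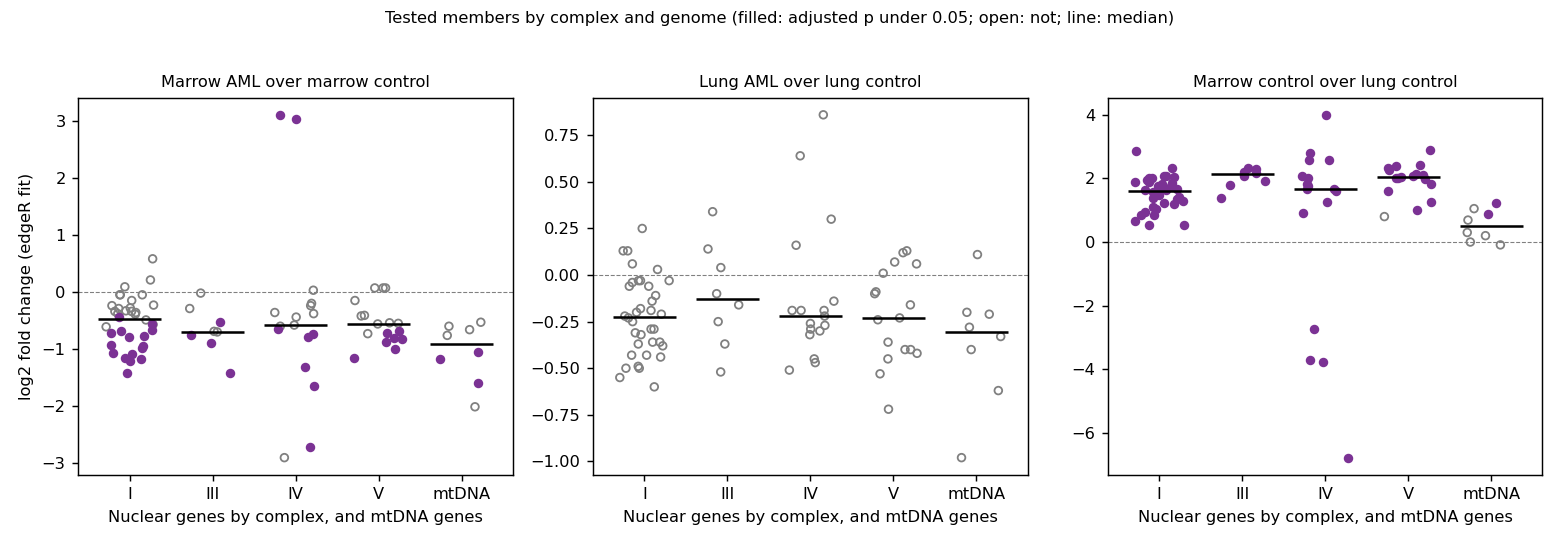
Fitted log2 fold change (vertical axis, with its own scale in each panel) of the 86 tested genes by complex and genome, for marrow AML over marrow control, lung AML over lung control and marrow control over lung control. Filled points passed the test, with 36 below and 2 above 0 in the marrow AML panel, none in the lung AML panel, and 75 above and 4 below 0 in the panel of the controls, and lines are medians.

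Mitochondrial DNA encodes 13 of the members, and their counts fell into separate ranges. Over the 12 libraries mt-Cytb had 363183 counts, mt-Co1 334602, mt-Nd1 189679, mt-Nd5 87354, mt-Nd4 80643, mt-Nd2 57917 and mt-Nd6 22322. At the other end mt-Nd3 had 219, mt-Atp6 51, mt-Co3 50, mt-Co2 20, mt-Atp8 5 and mt-Nd4l 1, although mt-Co2, mt-Co3 and mt-Atp6 lie between mt-Co1 and mt-Nd4 on the same precursor RNA. Chromosome 1 carries a nuclear copy of that stretch (mm10, 24611535 to 24616197), in which the annotation names 7 copies. Those of mt-Co2, mt-Atp6, mt-Co3 and mt-Nd4l (Gm28661, Gm10925, Gm28437 and Gm10222) match the mitochondrial gene without a mismatch over 681, 678, 783 and 294 bases. The copy of part of mt-Nd4, Gm28439, has no mismatch over 876 bases either. The copy of mt-Nd3, Gm28438, has 1 mismatch over 345 bases, and that of mt-Co1, Gm29216, has 6 over 492. The start of mt-Co2 and of mt-Nd3 is shown beside that of its nuclear copy, because a read from either place would be the same or nearly so. Capitals mark the base that differs, T3C counted from the start of mt-Nd3, and no base differs between mt-Co2 and Gm28661. Both mitochondrial stretches are on the plus strand of chrM, at 7013 to 7072 and 9459 to 9518, and the copies are on the minus strand of chromosome 1, at 24615506 to 24615565 and 24613060 to 24613119 (GENCODE M21 transcripts, GRCm38).
mt-Co2: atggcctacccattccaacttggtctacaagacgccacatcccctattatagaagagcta
Gm28661: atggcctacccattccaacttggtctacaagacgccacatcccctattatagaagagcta
mt-Nd3: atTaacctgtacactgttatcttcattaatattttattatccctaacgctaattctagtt
Gm28438: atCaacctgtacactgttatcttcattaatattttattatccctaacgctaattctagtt

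The share of 50-base words that a mitochondrially encoded gene has in common with another annotated gene was 100% for mt-Co2, 99.9% for mt-Co3, 99.5% for mt-Atp6, 98.8% for mt-Nd4l and 98.0% for mt-Nd3. These 5 genes had 219 counts or fewer each. It was 62.2% for mt-Nd4 and 51.1% for mt-Co1, and 8.19% or less for mt-Nd1, mt-Nd2, mt-Nd5, mt-Nd6 and mt-Cytb, and these 7 had 22322 counts or more. mt-Atp8 is an exception, with 5 counts and no shared word. It lies opposite a stretch of 233 bases between the annotated copies of mt-Atp6 and mt-Co2, which holds no annotated transcript. The copies took up few counts themselves, with 90 for Gm10925, 72 for Gm28437, 69 for Gm29216 and 40 for Gm28661 over the 12 libraries. How reads with several matches were counted is not given in the sources used here, and the values of these 6 genes, and those of mt-Nd4 and mt-Co1, are uncertain.

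**Figure D4:**
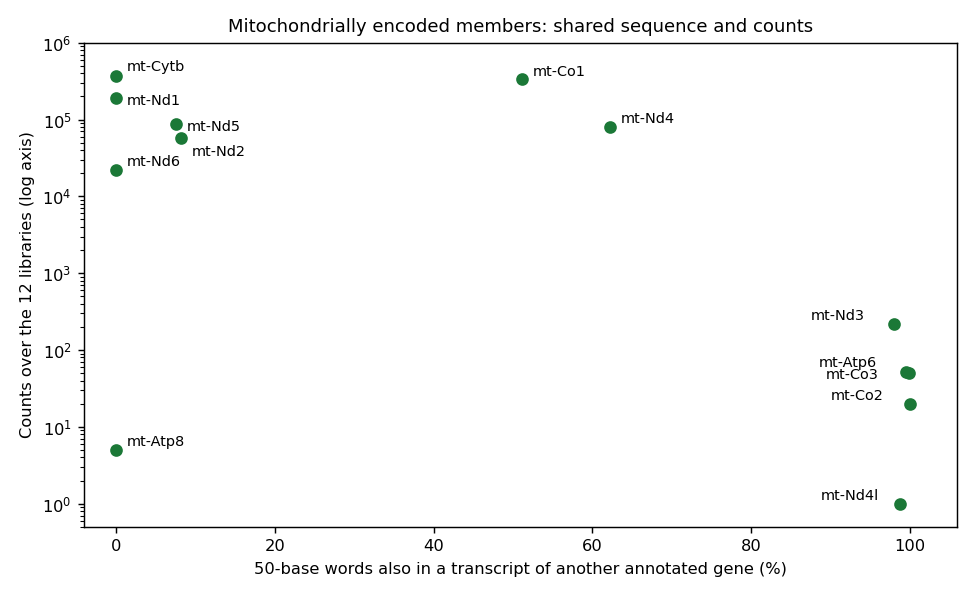
Share of the 50-base words of each of the 13 mitochondrially encoded genes that occur in a transcript of another annotated gene (horizontal axis, percent) against its counts over the 12 libraries (vertical logarithmic axis). The 5 genes with 98.0% or more shared words had 1 to 219 counts, and mt-Atp8 had 5 counts with no shared word.

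Among the mitochondrially encoded genes that could be tested, mt-Co1, mt-Nd5 and mt-Nd6 were called lower in marrow AML. mt-Co1, the catalytic subunit of complex IV, whose values are uncertain because of its nuclear copy, had 1099, 1041 and 875 CPM in marrow AML libraries 1 to 3 and 1644, 2484.5 and 2120 CPM in marrow control libraries. The groups did not overlap, and the log2 fold change was -1.05 ± 0.26 (SE; edgeR, adjusted p = 0.0076). mt-Nd5, a proton-pumping subunit of complex I, had 145, 157 and 132 CPM in marrow AML and 376, 602 and 326 CPM in marrow control, a log2 fold change of -1.59 ± 0.45 (SE; edgeR, adjusted p = 0.0144). Without marrow control library 2 its value was -1.28 (edgeR, adjusted p = 0.0603). mt-Nd6, the only member read from the other strand of mitochondrial DNA, had 50.3, 39.3 and 38.4 CPM in marrow AML and 76.9, 129.5 and 81.9 CPM in marrow control. Its log2 fold change of -1.17 ± 0.43 (SE; edgeR, adjusted p = 0.044) was not called when any 1 of the 6 marrow libraries was left out, with adjusted p from 0.0552 to 0.157. mt-Nd5 and mt-Nd6 overlap by 14 bases on opposite strands, and counting ignored strand. Reads of RNA from either strand along the 519 bases of mt-Nd6 could thus be counted for it, so its values are uncertain too.

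mt-Cytb, the one complex III subunit made in mitochondria, had 1411, 1312 and 1111 CPM in marrow AML and 1596, 2200 and 1728.5 CPM in marrow control. Its log2 fold change was -0.53 ± 0.29 (SE; edgeR, adjusted p = 0.167). For mt-Nd1 (-0.66), mt-Nd2 (-0.60), mt-Nd4 (-0.76) and mt-Nd3 (-2.01) the threshold was not passed either, and all 8 tested genes had a negative value. As a share of all counts, the 13 genes came to 0.425% ± 0.0633 in marrow AML and 0.591% ± 0.0946 in marrow control (SD, n = 3 each). Relative to the nuclear members, the mitochondrially encoded counts came to 17.8%, 23.4% and 20.4% in marrow AML libraries 1 to 3 and 22.8%, 25.5% and 18.9% in marrow control libraries. These ratios overlapped, with means of 20.5% ± 2.80 (SD, n = 3) in marrow AML and 22.4% ± 3.29 (SD, n = 3) in marrow control. Per kilobase of transcript mt-Cytb averaged 1117 CPM per kilobase in marrow AML, 1610 in marrow control, 868 in lung AML and 999 in lung control.

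The share of nuclear genes called varied with the length of the coding sequence. In marrow AML against marrow control, 11 of 15 genes with a coding length over 700 bp were lower, as were 11 of 22 genes of over 400 to 700 bp and 11 of 40 genes of up to 400 bp. Of all genes of any length, 23.5% were lower. Shares by coding length were not computed over all genes, so whether this pattern is particular to the members was not tested. The median log2 fold changes of these 3 classes were -0.68, -0.55 and -0.56, while the median standard errors were 0.15, 0.24 and 0.31. Across the 77 nuclear genes with a known coding length, the Spearman correlation of the standard error with coding length was -0.76, and that of the log2 fold change with coding length was -0.12, as a description over genes of the same libraries. The spread within a group was shared among genes. Marrow AML library 1 was the highest of its group for 73 of the 78 nuclear genes tested, against 37.8% of all genes. In marrow AML libraries 1 to 3 the erythroid markers held 0.570%, 0.188% and 0.106% of the counts. The proliferation genes held 0.3195%, 0.207% and 0.139%, while the pericyte and smooth muscle markers held 0.674%, 0.417% and 1.54%. A link of these lists with the order of the libraries was not tested. Marrow control library 1 was the lowest of its group for 65 of 78, against 32.7% of all genes, and marrow control library 3 the highest for 59, against 28.2%. Lung control library 3 was the lowest of its group for 73 of 78, against 32.8% of all genes. Without marrow AML library 1, 46 of 86 members were called lower in marrow AML, against 23.9% of all genes.

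**Figure D5:**
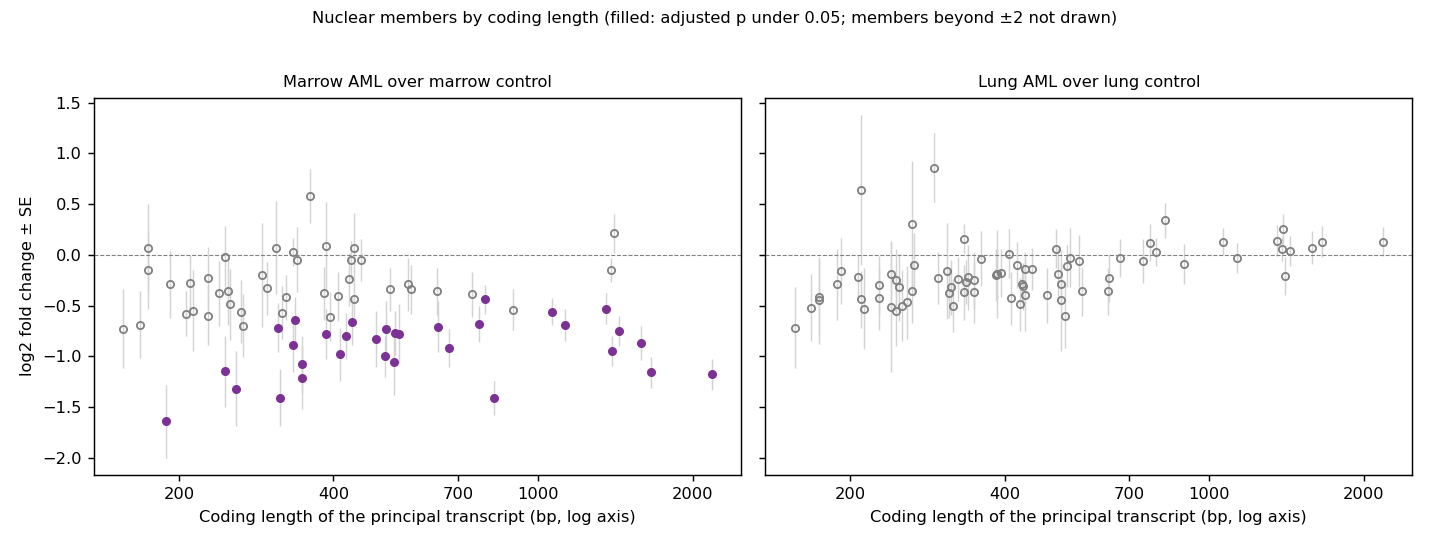
Fitted log2 fold change with its standard error (vertical axis) of the nuclear genes against the coding length of the principal transcript (horizontal logarithmic axis, bp), for marrow AML over marrow control (left) and lung AML over lung control (right). Filled points passed the test, bars are wider at short coding lengths, and 11 of the 15 genes over 700 bp passed in marrow while none did in lung. Of all genes of any length, 43.8% passed in marrow and 2.33% in lung.

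Other mitochondrial gene lists were set beside the members in the same comparison. Complex II had 2 of 4 genes lower in marrow AML, Sdha (-0.68 ± 0.19, SE; edgeR, adjusted p = 0.0119) and Sdhb (-0.52 ± 0.17, SE; edgeR, adjusted p = 0.03). Sdhc (-0.27) and Sdhd (-0.38) did not pass. With library totals none of the 4 was called, and the call of Sdhb also ended without any 1 of marrow AML libraries 2 and 3 and marrow control libraries 2 and 3 (edgeR, adjusted p from 0.0654 to 0.101). Of subunits and carriers that the rule left out, Cyc1 (-0.85), the cytochrome of complex III, Cycs (-1.12), cytochrome c itself, and Ndufab1 (-0.91), the acyl carrier of complex I, were called lower, Ndufab1 not without marrow AML library 2 or 3 or marrow control library 3 (edgeR, adjusted p from 0.0539 to 0.0771). Ndufa4l2, a hypoxia-induced relative of Ndufa4, had 191, 88.5 and 211 CPM in marrow AML and 12.4 to 22.1 CPM in marrow control, a log2 fold change of 3.37 ± 0.65 (SE; edgeR, adjusted p = 0.00165). Its groups did not overlap. The mitochondrial ribosomal proteins, which make the 13 encoded subunits, had 37 of 78 genes lower and 1 higher, with a median of -0.56, and 18 lower and 5 higher with library totals. Among the lower ones was Mrpl35 (-1.34; edgeR, adjusted p = 0.000176), and the 1 higher gene was Mrps6. Of 13 citrate cycle genes 8 were lower and none higher (4 and 1 with library totals), among them the citrate synthase gene Cs (-1.05) and Dlst (-1.66), a subunit of the oxoglutarate dehydrogenase complex.

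The assembly factors had calls in both directions. Of 14 factors for complex I, 2 were lower and 1 higher, Tmem126b (1.12 ± 0.18, SE; edgeR, adjusted p = 0.000564), and their median was -0.03, or 0.28 with library totals. Of 25 factors for complexes III, IV and V, 5 were lower and 3 higher, with a median of -0.25, which turned to 0.06 with library totals. Among them Coa5 (-1.61) and Cox11 (-1.35) were lower, while Surf1 (0.88), Cox10 (0.96) and Ttc19 (0.71) were higher. Of 8 mitochondrial carriers and pores tested, 5 were lower (3 with library totals), among them Vdac3 (-1.01), and Slc25a4, the heart and muscle ADP/ATP carrier, was higher (1.96). Of 20 genes for transcription and upkeep of mitochondrial DNA, 6 were lower and 1 higher, or 4 lower and 5 higher with library totals. Lower were Tfb1m (-1.91), a ribosomal RNA methyltransferase, Pnpt1 (-1.30), an RNA-processing enzyme, Slirp (-1.30), Lrpprc (-1.12), Ssbp1 (-0.60) and Tfam (-0.51), which packs mitochondrial DNA and starts its transcription, and Tefm, an elongation factor, was higher (1.39). Leaving out 1 library ended the calls of Tfam (library 2 of either group, or marrow AML library 3), Ssbp1 (library 2 or 3 of either group), Cox10 (library 1 of either group, or marrow control library 2) and Lonp1 (library 1 or 2 of marrow control, or 2 or 3 of marrow AML), with adjusted p from 0.0561 to 0.12 (edgeR). Of 12 hypoxia-induced genes 8 were higher, led by Bnip3 (3.98) and Pkm (3.35), and 2 were lower, Pdk1 (-1.12) and Lonp1 (-0.71). Cox4i2 and Ndufa4l2 are among the 8. Their place in this list gives no cause, as 10 of 12 pericyte and smooth muscle markers were higher as well, and neither link was tested. The lists were chosen with earlier results of these data known, and of all genes 23.5% were lower and 20.4% higher.

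Nuclear regulators of respiratory genes had 3 of 8 genes lower. Nrf1, a factor that binds many promoters of respiratory subunits, had 69.4, 58.0 and 80.9 CPM in marrow AML libraries 1 to 3 and 166, 166 and 151 CPM in marrow control libraries. Its groups were far apart, with a log2 fold change of -1.21 ± 0.17 (SE; edgeR, adjusted p = 0.00025). Gabpa (-1.37) and Gabpb1 (-1.43), the 2 kinds of subunit of the ETS factor GABP, were also lower. The exons of Gabpa overlap those of Atp5j over 397 bases on the other strand. Ppargc1a, a coactivator of these factors, was called higher (3.27 ± 1.13, SE; edgeR, adjusted p = 0.0361), with 0, 2.33 and 5.41 CPM in marrow AML and 0.512, 0.151 and 0.120 CPM in marrow control. Its marrow AML library 1 had no count, so the groups overlapped, and its call ended without marrow AML library 3 (2.16), marrow control library 2 (2.98) or marrow control library 3 (2.94; edgeR, adjusted p from 0.11 to 0.12), while without marrow control library 1 its value was 4.21.

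A promoter of 300 bases, from 250 before to 50 after the annotated start, was matched in RefSeq (GRCm38.p6) for 65 of the 80 nuclear members. The NRF1 motif, the 10 bases in capitals in the Uqcrc1 promoter shown here, reads the same on both strands and occurred in 5 of them (7.69%) and in 1.07% of 27025 genes with a promoter. The ETS motif CCGGAAG, searched on both strands, occurred in 15 members (23.1%) and in 9.93% of all. The YY1 motif AAGATGGC, on both strands, occurred in 10 members (15.4%) and in 3.19% of all. The 27025 genes were not limited to those tested here, and shares among the tested genes were not computed. The members with the NRF1 motif were Atp5g2, Atp5k, Cox6a1, Ndufa11 and Uqcrc1. Of these 5, Cox6a1 and Uqcrc1 were called lower in marrow AML. Among the 78 nuclear members tested, with or without a matched promoter, 33 were lower (42.3%), and 5 genes are too few to compare with that share. A link between motif and change was not tested. The promoters of Cox6a1 and Uqcrc1 are shown because these members hold the motif and were called, and a match of letters says nothing of binding. Uqcrc1 is on chromosome 9 (108936398 to 108936697, plus strand) and Cox6a1 on chromosome 5 (115348909 to 115349208, minus strand). Capitals mark the NRF1 motif, at base 281 in Uqcrc1 and at base 89 in Cox6a1, and in Cox6a1 also the reverse ETS motif at base 235.
Uqcrc1: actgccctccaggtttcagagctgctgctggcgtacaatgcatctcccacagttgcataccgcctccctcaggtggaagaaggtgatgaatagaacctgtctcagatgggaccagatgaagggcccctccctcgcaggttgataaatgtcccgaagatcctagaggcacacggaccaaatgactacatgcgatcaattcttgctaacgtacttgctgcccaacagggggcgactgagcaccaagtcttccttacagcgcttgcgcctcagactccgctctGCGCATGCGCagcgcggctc
Cox6a1: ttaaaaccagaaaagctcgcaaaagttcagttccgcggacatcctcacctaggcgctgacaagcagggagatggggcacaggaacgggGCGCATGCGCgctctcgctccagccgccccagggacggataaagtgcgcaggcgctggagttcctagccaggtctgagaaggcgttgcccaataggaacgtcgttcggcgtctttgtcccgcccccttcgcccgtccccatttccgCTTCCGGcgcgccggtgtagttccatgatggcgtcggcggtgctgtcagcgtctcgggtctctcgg

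In the lung, no member was called between AML and control libraries, where 2.33% of all genes were called, 1.17% of them higher and 1.16% lower (edgeR). Only Cox6a2 had an unadjusted p under 0.05. It had 71.3, 81.3 and 86.1 CPM in lung AML libraries 1 to 3 and 47.7, 46.3 and 37.6 CPM in lung control libraries, with no overlap. Its log2 fold change was 0.86 ± 0.34 (SE; edgeR, adjusted p = 0.234), and it was the 1 member called with the DESeq2 Wald test (adjusted p = 0.0157) and with edgeR on the 6 lung libraries alone (adjusted p = 0.022). The median over the 86 genes was -0.23, against 0 over all genes, with 68 negative values and a median standard error of 0.26. Uqcrfs1, the gene of smallest p in complex III, had 115, 108 and 102 CPM in lung AML and 92.8, 83.9 and 80.8 CPM in lung control, a log2 fold change of 0.34 ± 0.17 (SE; edgeR, adjusted p = 0.348). Ndufa11 (-0.49), Ndufs5 (-0.50), Uqcr11 (-0.52), Cox6b1 (-0.47), Atp5e (-0.72) and Atp5h (-0.40) had the smallest p-values of their complexes otherwise, with adjusted p from 0.389 to 0.631 (edgeR). The log2 fold change itself varied with coding length here, with a Spearman correlation of 0.52 over 77 nuclear genes, and medians of 0.07 for genes over 700 bp, -0.26 for over 400 to 700 bp and -0.28 for up to 400 bp. Lung control library 3 was the lowest of its group for nearly all nuclear members, and without it 12 members had an unadjusted p under 0.05 and none was called.

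The mitochondrially encoded genes of the lung varied with lung control library 2. mt-Co1 had 832, 913 and 1100 CPM in lung AML libraries 1 to 3 and 698, 1267 and 675 CPM in lung control libraries. mt-Nd5 had 230.5, 238 and 448 CPM in lung AML and 222, 642.5 and 193 CPM in lung control. In both genes lung control library 2 was above every lung AML library, and the other 2 controls were below. As a share of all counts, the 13 genes came to 0.288% ± 0.0676 in lung AML and 0.346% ± 0.176 in lung control (SD, n = 3 each), or 0.245% without lung control library 2. The median log2 fold change of the 8 tested genes was -0.30 with that library and 0.34 without it, with 7 negative values with it and 8 positive ones without it, and none was called either way. Pan-endothelial markers moved in this comparison as well, with 0.0301% to 0.100% of counts in lung AML and 0.242% to 0.815% in lung control, and 7 of 15 were called lower. Markers of lung epithelium held 20.4% to 22.5% in lung AML and 15.2% to 19.03% in lung control, with none of 12 called higher and 1 lower. The part of either list in the result was not tested.

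The effect of AML differed between marrow and lung for 16 members in a test of the difference itself. The difference (marrow effect minus lung effect) was negative for 14 (16.3%), against 16.1% of all genes, and positive for 2 (2.33%), against 14.6% of all genes (edgeR). In either direction 30.7% of all genes were called, and the share of negative calls was near that of all genes. Uqcrfs1 led, with -1.75 ± 0.24 (SE; edgeR, adjusted p = 0.000436), then Ndufs1 with -1.31 ± 0.20 (SE; edgeR, adjusted p = 0.000971) and Atp5a1 with -1.29 ± 0.22 (SE; edgeR, adjusted p = 0.00146). These 3 genes were lower in marrow AML and had log2 values of 0.34, 0.13 and 0.13 in the lung. Ndufv1 (-1.20), Ndufs7 (-0.89), Ndufa10 (-0.69), Ndufa9 (-0.66), Uqcrc1 (-0.79), Uqcrc2 (-0.66), Atp5b (-0.94), Atp5d (-1.06), Atp5pb (-0.80), Cox6b2 (-3.01) and mt-Co1 (-1.16) made up the 14. The 2 positive differences were those of Cox7a1 (3.62 ± 0.96, SE; edgeR, adjusted p = 0.015) and Cox4i2 (3.48 ± 0.74, SE; edgeR, adjusted p = 0.00501). By coding length, 10 of 15 genes over 700 bp, 2 of 22 of over 400 to 700 bp and 1 of 40 of up to 400 bp had a negative call. Shares by coding length were not computed over all genes, of which 16.1% had a negative call. The count of negative calls was 5 with library totals (with 3 positive, and 9.68% negative and 19.3% positive of all genes). It was 7 of 82 with the 5 CPM filter (17.3% of all genes). Of 86 members it was 9 without marrow AML library 2 (15.6% of all genes) and 9 without marrow control library 2 (12% of all genes). It was 5 without lung AML library 2 (10.6% of all genes) and 8 without lung control library 3 (12.1% of all genes). In each of these settings the share of members was below that of all genes. With library totals the medians were 0.04 over the members and 0.30 over all genes, against -0.35 and -0.09 with TMM factors. The calls of Uqcrfs1, Ndufs1, Ndufv1, Atp5a1, Cox4i2 and Cox7a1 held under every alternative tried, except that Cox7a1 was not tested with the filter of 5 CPM, while that of mt-Co1 ended without library 2 or 3 of marrow AML, of marrow control or of lung AML, or library 1 or 3 of lung control (edgeR, adjusted p from 0.0531 to 0.0858), those of Uqcrc2 and Atp5pb without any 1 of 10, that of Ndufa9 without any 1 of 8 and that of Ndufs7 without any 1 of 5. The calls of Uqcrc1, Ndufa10 and Atp5d ended without lung AML library 2 (edgeR, adjusted p = 0.0902, 0.0907 and 0.0543). The call of Cox6b2 ended without marrow control library 2, lung AML library 2 or lung control libraries 2 or 3 (edgeR, adjusted p from 0.0502 to 0.0626). Without lung control library 2, mt-Nd4 (-1.02), mt-Nd5 (-2.14) and mt-Nd6 (-1.58) joined mt-Co1 among the negative calls. Without marrow AML library 1 the difference was -4.42 for Cox6b2 and 2.99 for Cox7a1.

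Marrow control libraries had higher levels of nearly all nuclear members than lung control libraries. Of the 86 genes, 75 were called higher (87.2%), against 29.4% of all genes, and 4 were called lower (4.65%), against 34.7% of all genes (edgeR), with 64.2% of all genes called in either direction. The median log2 fold change was 1.69 over the members and -0.20 over all genes. All 36 nuclear genes of complex I, all 8 of complex III, 13 of 17 of complex IV and 16 of 17 of complex V were higher, with medians of 1.61, 2.12, 1.67 and 2.06. Atp5g2 (0.80; edgeR, adjusted p = 0.0605) was the 1 complex V gene not called. The calls of Ndufa7, Ndufa13, Ndufb11, Ndufs5, Ndufv3 and Cox6c2 ended without 1 or more of the libraries of these groups other than marrow control library 1, which ended that of Cox6c2 alone (edgeR, adjusted p from 0.0505 to 0.166). The 80 nuclear genes together had 22395, 29147 and 31014 CPM in marrow control libraries 1 to 3 and 8836, 8541 and 6370 CPM in lung control libraries. Uqcrc2, with 381.5, 443 and 521 CPM in marrow control and 108, 98.8 and 87.9 CPM in lung control, had a log2 fold change of 2.19 ± 0.16 (SE; edgeR, adjusted p = 1.05e-06). Uqcrfs1 (2.30), Ndufa9 (1.89), Ndufs1 (1.75), Cox5b (2.59) and Atp5pb (2.14) were among the calls of smallest p in their complexes. Atp5g1 (2.88), Ndufb9 (2.85) and Cox7c (2.80) had the largest values after Cox6b2, which had 78.5, 122 and 103 CPM in marrow control and 7.09, 6.22 and 5.63 CPM in lung control. Erythroid markers held 2.47% to 2.67% of counts in marrow control and 0.0507% to 0.0537% in lung control, and proliferation genes 1.23% to 1.27% in marrow control and 0.0159% to 0.0210% in lung control. Lung epithelium markers held 0.0537% to 0.257% in marrow control and 15.2% to 19.03% in lung control, and the part of these lists in the result was not tested.

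The 4 members called lower in marrow control than in lung control were all restricted forms of complex IV subunits. Cox6a2 had 0.326, 0.603 and 0.240 CPM in marrow control and 47.7, 46.3 and 37.6 CPM in lung control, a log2 fold change of -6.78 ± 0.47 (SE; edgeR, adjusted p = 8.56e-07). Its exons overlap those of Itgad over 70 bases on the other strand. Cox4i2 had 3.17, 1.31 and 2.22 CPM in marrow control and 41.7, 10.5 and 35.4 CPM in lung control, a log2 fold change of -3.71 ± 0.57 (SE; edgeR, adjusted p = 0.000175). The groups were apart in both genes. Cox7a1 was lower by a fitted log2 value of -2.72 ± 0.71 (SE; edgeR, adjusted p = 0.0058). Cox8b had 2 counts in marrow control and 39 in lung control, a ratio of 14.9 (95% counting interval 3.86 to 127) higher in lung control. Cox8c had no count in marrow control and 2 in lung control. The common forms Cox4i1 (2.07), Cox6a1 (1.77), Cox6b1 (2.01), Cox7a2 (1.84) and Cox8a (1.25) were all called higher in marrow control, as was Cox7a2l (0.91).

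Of the 8 mitochondrially encoded genes tested, mt-Co1 (1.24 ± 0.26, SE; edgeR, adjusted p = 0.00169) and mt-Nd1 (0.89 ± 0.31, SE; edgeR, adjusted p = 0.0247) were higher in marrow control than in lung control, and the median was 0.50. These 2 calls (25.0%) stand beside 29.4% of all genes called higher, so their number is not a result about these genes. The call of mt-Nd1 ended without any 1 of marrow control libraries 2 and 3 and lung control libraries 1 and 3 (edgeR, adjusted p from 0.0538 to 0.108). Without lung control library 2, 6 of the 8 were called higher, against 25.9% of all genes, and the median was 1.08. Mitochondrially encoded counts came to 22.8%, 25.5% and 18.9% of nuclear member counts in marrow control libraries 1 to 3 and to 30.98%, 67.04% and 37.97% in lung control libraries. The highest marrow ratio was below the lowest lung ratio. The same held with leukaemia, with 17.8%, 23.4% and 20.4% in marrow AML and 35.3%, 38.8% and 57.4% in lung AML. Of the other lists, 72 of 78 mitochondrial ribosomal protein genes, 9 of 13 citrate cycle genes and 3 of 4 complex II genes were higher in marrow control, and none of these lists held a lower call. Among all genes 29.4% were higher and 34.7% lower.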

How the data were processed

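The counts are raw reads per gene symbol as deposited by the authors. Per the labels' protocols, RNA of sorted cells was amplified with a SMART-seq v4 kit and libraries were made with ThruPLEX, while the submitters' processing notes name bcl2fastq, STAR and the build mm10. For tool versions, counter, annotation and multiply matching reads the answer is not given in the sources used here. Counting ignored strand, per the names of the deposited tables. Genes were kept with filterByExpr of edgeR (at least 10 counts, total of 15), which left 18147 of 55291 symbols, and scaled with TMM factors (0.865 to 1.25). All 12 libraries entered 1 quasi-likelihood model with 4 groups and 8 residual degrees of freedom (edgeR 4.0.16, R 4.3.3), and p-values were adjusted over all genes tested by the Benjamini-Hochberg method with a threshold of 0.05. The model was tested on simulated data. Standard errors are on the log2 scale. Sequence overlaps and promoters were computed with Python 3.11.15 from GENCODE M21 transcripts and RefSeq. Intervals and floors cover counting error only.

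The members and all lists were chosen with earlier results of these data known. Members named were those encoded in mitochondria, the 2 of smallest p in each nuclear complex and comparison, the isoform genes of complex IV and the calls against the main direction. Further members were named after their values were seen, to complete the lists of calls. Per other list, the 2 genes of smallest p were named, with others added after their values were seen. Alternatives were other scalings, filters and fits, DESeq2 1.42.0, a block for the replicate number, and each library left out in turn.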

Additional observations from a re-analysis of the deposited data

Results flagged for a closer look

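The effect of AML on 16 respiratory chain genes differed between marrow and lung in the test of the difference itself (marrow effect minus lung effect, log2; edgeR, adjusted p from 0.000436 to 0.0401), where 30.7% of all genes differed. The 14 negative differences (16.3% of the members tested) stand beside 16.1% of all genes, so their number is not a result about these genes. Of complex I these were Ndufs1 (-1.31), Ndufv1 (-1.20), Ndufs7 (-0.89), Ndufa10 (-0.69) and Ndufa9 (-0.66). Of complex III they were the Rieske protein gene Uqcrfs1 (-1.75) and the core protein genes Uqcrc1 (-0.79) and Uqcrc2 (-0.66). Of complex V they were Atp5a1 (-1.29), Atp5d (-1.06), Atp5b (-0.94) and Atp5pb (-0.80). Of complex IV the catalytic subunit gene mt-Co1 (-1.16) and the testis form Cox6b2 (-3.01) had a negative difference, and the restricted forms Cox4i2 (3.48) and Cox7a1 (3.62) had a positive one. The 14 genes with a negative difference were called lower in marrow AML than in marrow control, with lung values between -0.03 and 0.34. Cox4i2 and Cox7a1 were called higher in marrow AML, with lung values of -0.45 and -0.51 that did not pass.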

How the results depend on the processing

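Among the single genes recomputed, the members and the genes of the other lists named here, no called value changed its sign under the alternatives that tested it, while values that were not called changed sign in 125 instances in marrow, 104 in lung, 229 in the difference and 23 between the controls. With library totals alone, 16 members were lower and 4 higher in marrow AML (16.2% and 25.6% of all genes). With them, 5 had a negative difference between marrow and lung (9.68% of all genes). With the filter of 5 CPM, 19 of 82 were lower in marrow AML (22.5% of all genes). With that filter, 7 had a negative and 1 a positive difference (17.3% and 22.2% of all genes). It left 2 lower in marrow control than in lung control (38.1% of all genes). In fits of the 6 libraries compared, 19 of 84 were lower in marrow AML (16.9% of all genes) and 1 was higher in lung AML (3.32%). The DESeq2 Wald test also called 1 higher in lung AML (4.14% of all genes). The cause of these changes was not tested. Leaving out 1 library at a time gave 22 to 46 lower and 2 to 3 higher members in marrow AML. Of all genes, 17.7% to 23.9% were then lower and 15.8% to 21.1% higher. It gave 5 to 18 negative differences, against 10.6% to 18% of all genes. It gave 68 to 78 higher members in marrow control than in lung control, against 23.8% to 26.2% of all genes. Deviations of same-numbered libraries had correlations of -0.12, 0.02 and -0.10 between the marrow groups, 0.15, -0.03 and -0.16 between the lung groups, 0.04, -0.01 and -0.04 between the AML groups and 0.04, 0.18 and -0.01 between the controls, so in no pair of groups were all 3 above 0.1, and the numbers were not taken to pair libraries. A replicate block left 34 of the 38 marrow AML calls (32 lower, 2 higher) and 13 of the 16 differences. With the block, 22% of all genes were lower and 18% higher in marrow AML, and 14.6% had a negative and 12.6% a positive difference. Low counts kept 7 members out of the test with the filter used, and without a filter all 93 were tested and no further one was called.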

Other observations

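Ndufb1-ps, a symbol the selection rule did not take, had 29160 counts over the 12 libraries. It had 248, 150.9 and 111.5 CPM in marrow AML libraries 1 to 3 and 122.7, 262.5 and 245.2 CPM in marrow control libraries, so the groups overlapped. In the lung it had 33.7, 31.6 and 38.4 CPM in lung AML and 41.3, 70.9 and 19.5 CPM in lung control.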
